A study of Mus musculus with 23 samples.

Results

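Chemokine ligands are small secreted proteins that direct the movement of leukocytes. The genes analysed here were all those whose symbol in the count table was Ccl, Cxcl, Cx3cl or Xcl followed by a number and at most 1 letter, and that had a read in any of 15 mouse livers. That rule matched 39 gene rows, of which 37 had a read, out of 20380 genes with a read. *Cxcl15* and *Ccl21d* had none. By the leukocyte that each ligand is best known to attract, 4 genes were grouped as neutrophil ligands, 9 as monocyte ligands, 17 as lymphocyte ligands and 7 as others, although several ligands attract more than 1 cell type.

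The livers came from 15 female mice, 6 Ctrl, 6 ABpIF/+ and 3 ABpIF/F, and the tissue taken was free of visible tumours. All mice carried Cre under the albumin promoter, which is active in hepatocytes, and 2 floxed alleles of *Trp53*, the gene of the tumour suppressor p53. Ctrl mice had wild-type *Braf* and 1 floxed allele of *Icmt*, the gene of the enzyme that methylates prenylated proteins such as RAS. ABpIF/+ mice had in addition the BrafCA allele, which gives the constitutively active kinase BRAF V600E after Cre recombination, and ABpIF/F mice had that allele and 2 floxed alleles of *Icmt*. The labels give no ages. The ABpIF/F mice, of which there were only 3, are described in the study as unequal in age and in the size of their liver tumours, and which of BG183, BG38 and BG90 was the younger or the older is not given in the sources used here. Cells in which Cre is not active, leukocytes included, keep their floxed alleles, so the RNA of a whole liver mixes edited with unedited cells. The study describes the floxed *Icmt* allele as hypomorphic, with reduced expression where Cre has not cut it. The unedited cells of ABpIF/F mice may therefore differ in *Icmt* as well. In such bulk samples, fewer cells of a type and less RNA per cell cannot be told apart.

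Libraries held 24742910 to 32262649 counted reads each. Levels are given as CPM, counts per depth after TMM scaling, a correction for differences in library composition. *Icmt* lay between 15.2 and 16.6 CPM in the 3 ABpIF/F mice and between 27.8 and 37.4 CPM in the 12 others. Of 5 hepatocyte markers, *Apoa1* was called higher in both ABpI groups than in Ctrl livers, and *Alb*, *Ttr*, *Apob* and *Hnf4a* were not called in any comparison. In Ctrl, ABpIF/+ and ABpIF/F livers *Alb* had means of 89159, 153783 and 144110 CPM and *Ttr* of 4216, 2399 and 3419 CPM. Several features of the libraries touch the results. The ABpIF/F mouse BG38 had the largest TMM factor, 1.24, against 0.8458 to 1.086 in the others. A score of circadian clock genes, the mean log2 CPM of 11 genes high with *Dbp* minus that of 4 genes high with *Arntl*, lay between -2.38 and -0.0740 in ABpIF/F, between 3.55 and 4.15 in ABpIF/+ and between -0.970 and 4.41 in Ctrl mice, where malpa387 alone was below 0. All ABpI mice but only 1 Ctrl mouse, BG3, carried a strain label that names a further cross. The ligands and the gene lists were therefore also counted without BG38, with the clock score and with the strain label as a covariate.

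Chemokines act through receptors on leukocytes that couple to G proteins, and each receptor usually reads several ligands. *Cxcl1*, *Cxcl2*, *Cxcl3* and *Cxcl5* act through *Cxcr2* on neutrophils, *Ccl2*, *Ccl7* and *Ccl12* through *Ccr2* on monocytes, and *Cxcl9*, *Cxcl10* and *Cxcl11* through *Cxcr3* on activated T and NK cells. Many are induced genes: *Cxcl9* and *Cxcl10* are classical targets of interferons, and *Cxcl1* and *Ccl2* of NF-kB. *Cxcl12*, which retains leukocytes and stem cells through *Cxcr4*, is made constitutively in the liver.

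The promoters of *Cxcl1*, *Ccl9*, *Cxcl10* and *Cxcl9* are shown because these genes moved in different directions in the ABpIF/+ livers. Each sequence is the 250 bases before the RefSeq start site on GRCm38, written 5′ to 3′ on the strand of the gene, with capitals marking a match to any of 4 motifs searched on both strands. They lie at chr5:90890995-90891244 on the plus strand and, on the minus strand, at chr11:83578637-83578886, chr5:92348890-92349139 and chr5:92328080-92328329.

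Cxcl1: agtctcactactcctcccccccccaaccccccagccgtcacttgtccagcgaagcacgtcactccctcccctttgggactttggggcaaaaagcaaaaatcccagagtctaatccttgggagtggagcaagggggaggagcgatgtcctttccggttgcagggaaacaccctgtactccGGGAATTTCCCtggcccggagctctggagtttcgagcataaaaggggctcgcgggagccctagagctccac
Ccl9: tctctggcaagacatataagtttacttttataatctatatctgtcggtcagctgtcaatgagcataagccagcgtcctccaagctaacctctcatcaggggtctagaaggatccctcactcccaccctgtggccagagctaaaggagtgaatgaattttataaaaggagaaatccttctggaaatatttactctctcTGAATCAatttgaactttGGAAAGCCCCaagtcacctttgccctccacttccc
Cxcl10: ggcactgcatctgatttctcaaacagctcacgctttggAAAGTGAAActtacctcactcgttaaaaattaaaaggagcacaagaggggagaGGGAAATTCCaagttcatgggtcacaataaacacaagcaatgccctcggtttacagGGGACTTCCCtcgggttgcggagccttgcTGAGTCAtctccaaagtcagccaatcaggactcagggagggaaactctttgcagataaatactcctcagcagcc
Cxcl9: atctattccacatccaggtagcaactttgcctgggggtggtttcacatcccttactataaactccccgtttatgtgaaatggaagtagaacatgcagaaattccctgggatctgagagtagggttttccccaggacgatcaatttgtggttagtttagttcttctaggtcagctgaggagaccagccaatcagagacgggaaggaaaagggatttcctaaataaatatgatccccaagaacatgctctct

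The motifs were the interferon-stimulated response element core TTTCNNTTT, found in 10.6% of 32851 promoter windows of 300 bases, the gamma-activated site core TTCNNNGAA, found in 8.30%, the NF-kB consensus, found in 4.51%, and the AP-1 core TGANTCA, found in 7.81%. The table held a promoter for 9 of the 14 ligands called below. In *Cxcl1*, matches to the NF-kB consensus on both strands, beginning at -71 and -70 from the start site, overlap and print as 1 run of capitals. *Ccl9* held an AP-1 core at -53 and an NF-kB match at -35. *Cxcl10* held the response element core at -212, NF-kB matches at -159 and -103 and an AP-1 core at -74. *Cxcl9* had no match in the printed stretch, and an AP-1 core at 31 bases past the start. *Cxcl12*, *Xcl1*, *Ccl22*, *Cx3cl1* and *Ccl8* had no match. In all, 6 definitions of the 4 motifs were tried. The letters of the response element and NF-kB motifs were redefined after the matches of a first search had been seen, because the first letters could not be spelled out here. The first search found them in 3.44% and 4.79% of windows. It gave the response element in *Cxcl10* alone, as reported, but an NF-kB match in *Cxcl9* too, which the reported consensus does not give. A match is only a run of letters in this window, and a motif that changes with its definition is given as a description.

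**Figure D1:**
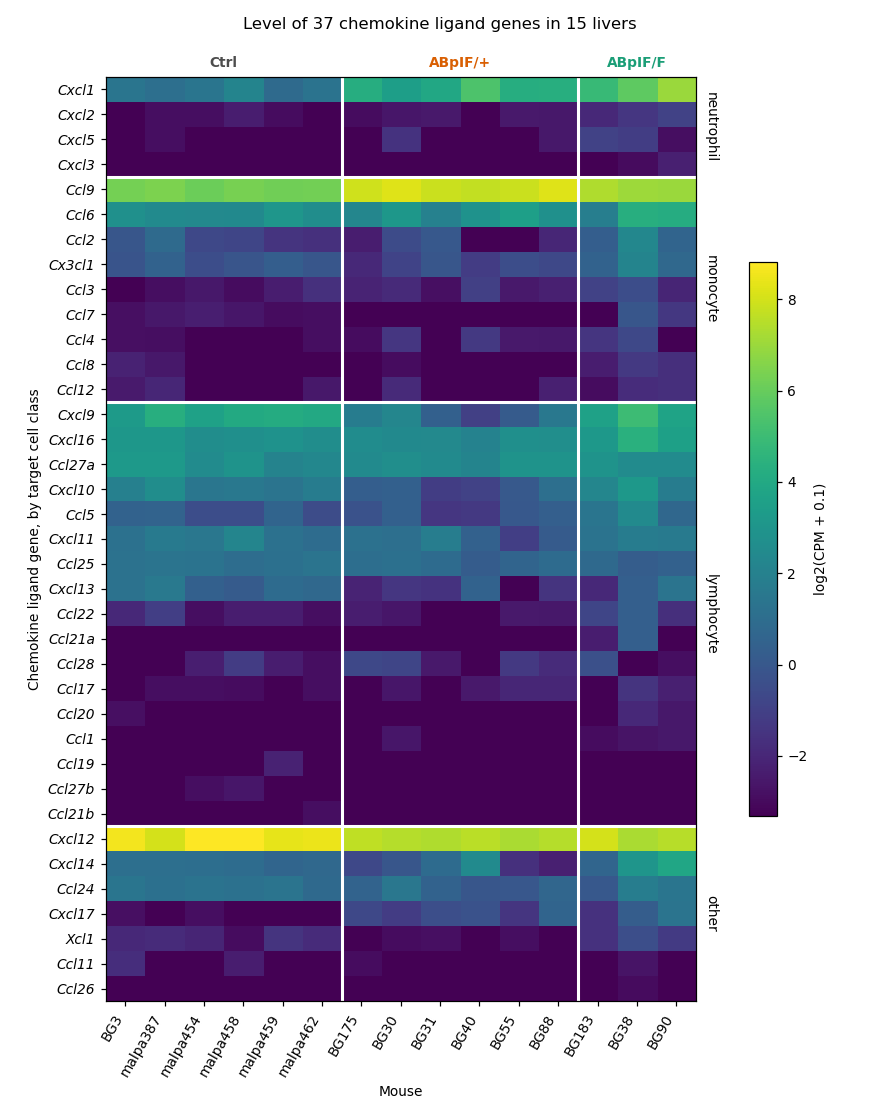
Heat map of log2(CPM + 0.1) for the 37 ligand genes (rows, by target cell class and then by highest group mean) in the 15 mice (columns, by group). *Ccl9* and *Cxcl12* are the brightest rows in every mouse but BG90, where *Cxcl1* equals *Ccl9* at 129 CPM, and BG38 and BG90 are the brightest columns for *Cxcl1*, *Ccl6* and *Cxcl16*.

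Most ligands were scarce. Of the 37, 14 were called in at least 1 comparison, 8 had a mean of at least 1 CPM in a group without being called, and 15 were below 1 CPM in every group. Per kilobase of exon, the highest mean levels in Ctrl livers were 45.4 CPM per kb for *Cxcl12* and 25.1 for *Ccl9*, a ligand of *Ccr1* on monocytes and macrophages. *Cxcl9* followed at 5.08, *Ccl6* at 3.46 and *Ccl27a* at 2.88. In ABpIF/+ livers the order of the first 3 was *Ccl9* at 82.9, *Cxcl12* at 21.8 and *Cxcl1* at 11.2 CPM per kb. In ABpIF/F livers it was *Ccl9* at 46.7, *Cxcl1* at 38.1 and *Cxcl12* at 24.5. That order of means did not hold in each mouse. In BG183 *Cxcl12* at 31.9 was above *Cxcl1* at 15.5, and in BG90 *Cxcl1* at 69.0 was above *Ccl9* at 42.3.

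Groups were compared in edgeR by a quasi-likelihood test that fitted the 15 mice together, with Benjamini-Hochberg adjustment over the whole table. Here a ligand is called, or said to have risen or fallen, where that adjusted p was under 0.01 and the log2 change was 1 or more in size. In ABpIF/+ against Ctrl livers, 3 of 37 ligands were higher (8.11%) and 4 were lower (10.8%), beside 6.26% and 7.13% of all genes with a read, so both shares were near the background. *Cxcl1*, *Ccl9* and *Cxcl17* rose, and *Cxcl9*, *Cxcl10*, *Cxcl12* and *Xcl1* fell. Against Ctrl, 4 ligands were higher in ABpIF/F (10.8%) and 0 lower, beside 6.06% and 3.17% of all genes. At an unadjusted p under 0.05, 20 were higher and 2 lower in that comparison. No share of all genes at that unadjusted level is given here, so such counts stand without a background. Between the ABpI groups, 9 were higher in ABpIF/F (24.3%) and 0 lower, beside 7.32% and 2.35% of all genes, and at an unadjusted p under 0.05, 19 were higher and 1 was lower. DESeq2 also called 0 lower in both. Without the ABpIF/F mouse BG38, 1 of the 37 was higher between the ABpI groups (2.70%), beside 3.87% of all genes. In ABpIF/F against Ctrl, 2 were then higher (5.41%), beside 3.80%. The median log2 fold change of the 37 ligands was -0.37, 1.51 and 1.74 in the 3 comparisons, beside 0, 0.09 and 0.05 over all genes with a read. The last 2 medians rest on scarce genes. The 1.51 is the value of *Ccl12*, with 30 counts over all mice. The 1.74 is that of *Ccl26*, with 1 count, in BG38. Since 15 of the 37 were below 1 CPM in every group, these medians do not measure a shift of the family. The comparisons share mice, so they are not independent of each other.

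**Figure D2:**
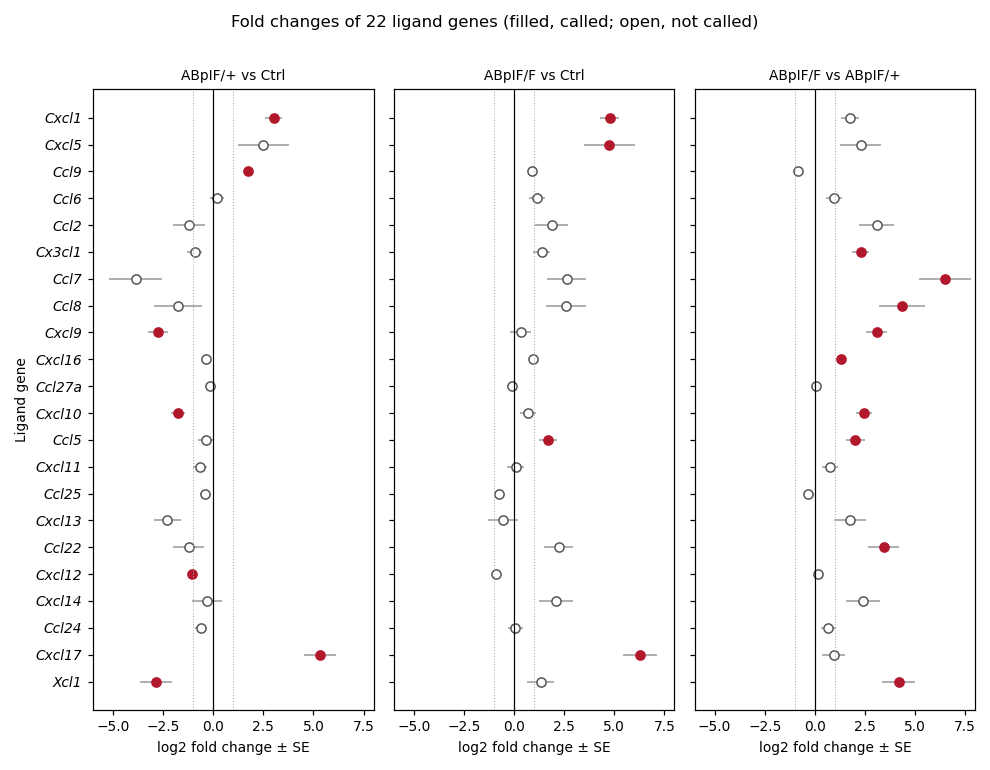
Log2 fold changes (x axis, points with SE bars) of the 22 ligands that were called or had a mean of at least 1 CPM in a group, in the 3 comparisons (panels). Filled points were called and open points were not, and the dotted lines mark a 2-fold change in CPM on either side of 0. In ABpIF/F against ABpIF/+ the 9 filled points all lie to the right of 0.

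Of the neutrophil ligands, *Cxcl1* (chromosome 5, 90891241 to 90893115, Entrez 14825) rose with both genotypes. It lay between 1.74 and 4.36 CPM in the 6 Ctrl mice, with a median of 2.44, and between 11.0 and 42.9 CPM in the 6 ABpIF/+ mice, with a median of 18.9. The 3 ABpIF/F mice had 29.1 (BG183), 55.9 (BG38) and 129 CPM (BG90). No ABpI mouse overlapped with a Ctrl mouse, while the ABpIF/+ mouse BG40 exceeded BG183. From Ctrl, the log2 fold change was 3.01 ± 0.43 (SE) in ABpIF/+ (edgeR adjusted p = 0.000122) and 4.77 ± 0.48 in ABpIF/F (edgeR adjusted p = 1.34e-05). Between the ABpI groups it was 1.76 ± 0.44, which did not pass (edgeR adjusted p = 0.0138).

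*Cxcl5*, another *Cxcr2* ligand, was called higher in ABpIF/F than in Ctrl livers on few reads. It had 1 count over the 6 Ctrl mice, 9 over the ABpIF/+ mice and 27 over the ABpIF/F mice, which had 0.424 (BG183), 0.360 (BG38) and 0.0357 CPM (BG90). BG90 fell within the Ctrl range, whose highest value was 0.0372 CPM. The ratio of summed counts per depth was 48.4, with a 95% counting interval of 7.97 to 1980 (log2 fold change 4.76 ± 1.26, edgeR adjusted p = 0.00948). DESeq2 did not call it (adjusted p = 0.0216), and the call was lost in 13 of 24 alternatives, among them leaving out any 1 Ctrl mouse, BG183, BG38 or BG88. *Cxcl2* was at most 0.429 CPM in any mouse and *Cxcl3* at most 0.107 CPM, and neither was called.

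The receptor of these ligands, *Cxcr2*, had 0.0653 (BG183), 2.19 (BG38) and 1.04 CPM (BG90) in ABpIF/F mice, against a mean of 0.0629 ± 0.0583 CPM (SD, n = 6) in Ctrl and 0.152 ± 0.0627 CPM (SD, n = 6) in ABpIF/+ mice. BG183 lay inside the Ctrl range although its *Cxcl1* was above every Ctrl mouse. *Cxcr2* was called higher in ABpIF/F than in Ctrl (log2 fold change 4.01, edgeR adjusted p = 0.000476) and than in ABpIF/+ (2.82, edgeR adjusted p = 0.00580), and neither call held without BG38. The summed level of 12 neutrophil markers was between 2.58 and 4.57 CPM in Ctrl, between 3.23 and 12.3 CPM in ABpIF/+ and 5.42, 109 and 41.2 CPM in BG183, BG38 and BG90. Of the 12 markers, 11 were higher in ABpIF/F than in Ctrl, beside 6.06% of all genes with a read. Without BG38 there were 6, beside 3.80% of all genes, and with the clock score or the strain label as a covariate 0, beside 1.36% and 2.24%. *Ly6g*, a defining marker, was at 0 in all Ctrl mice and not called. The part of these cells in the ligand results was not tested.

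**Figure D3:**
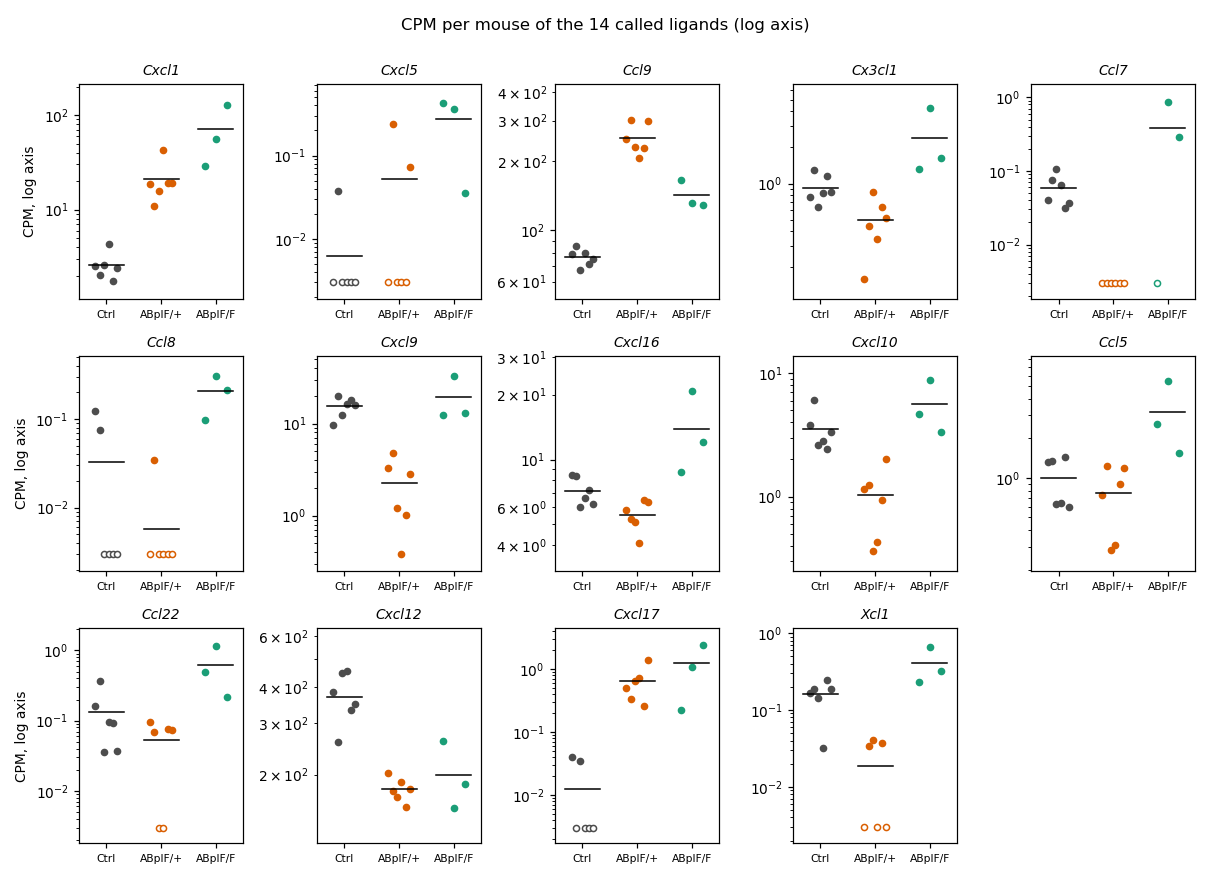
CPM per mouse (points, log axis) of the 14 called ligands in Ctrl, ABpIF/+ and ABpIF/F livers, with the group mean as a line and open points for mice with no read, drawn at 0.003 CPM. *Cxcl1* lies above all 6 Ctrl mice in all 9 ABpI mice, and *Cxcl9* and *Cxcl10* lie below all Ctrl mice in the 6 ABpIF/+ mice.

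Among the monocyte ligands, *Ccl9* (chromosome 11, 83572919 to 83578636, Entrez 20308) rose most firmly. Its level was between 67.7 and 85.9 CPM in Ctrl mice, with a median of 76.8, and between 206 and 301 CPM in ABpIF/+ mice, with a median of 241. The ABpIF/F levels were 166 (BG183), 132 (BG38) and 129 CPM (BG90), between the other groups and overlapping neither. From Ctrl, *Ccl9* changed by a log2 fold of 1.72 ± 0.12 in ABpIF/+ (edgeR adjusted p = 6.71e-10). In ABpIF/F it was 0.90 ± 0.14 from Ctrl (edgeR adjusted p = 8.9e-05) and -0.83 ± 0.15 from ABpIF/+ (edgeR adjusted p = 0.000510). Both passed the p threshold and fell short of the fold threshold. *Ccl9* was the 1 ligand lower in ABpIF/F than in ABpIF/+ at an unadjusted p under 0.05, and it is named here because of that count.

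*Ccl7*, *Ccl8* and *Cx3cl1* were called higher in ABpIF/F than in ABpIF/+ livers. *Ccl7*, a *Ccr2* ligand that recruits monocytes, had 0 counts in the 6 ABpIF/+ mice and 0 (BG183), 0.859 (BG38) and 0.286 CPM (BG90) in ABpIF/F mice. Its summed counts were at least 22.6-fold higher in ABpIF/F, taking 3 counts over the ABpIF/+ group as the floor (edgeR adjusted p = 0.00177). The groups overlapped at 0, through BG183, and the 6 Ctrl mice had 10 counts in all, at 0.0311 to 0.106 CPM. *Ccl8* had 5 counts over the Ctrl mice, 1 over the ABpIF/+ mice and 20 over the ABpIF/F mice, at 0.0979 (BG183), 0.305 (BG38) and 0.214 CPM (BG90), a ratio of 34.8 with a 95% counting interval of 5.57 to 1443 (edgeR adjusted p = 0.00981). DESeq2 did not call it (adjusted p = 0.0250), and the call was lost in 16 of 24 alternatives, leaving out any 1 ABpI mouse among them. Floors and intervals cover counting error only.

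*Cx3cl1*, a ligand that is anchored in the membrane and attracts monocytes and NK cells, lay between 0.636 and 1.30 CPM in Ctrl mice, with a median of 0.846, and between 0.160 and 0.847 CPM in ABpIF/+ mice, with a median of 0.480. The ABpIF/F levels were 1.31 (BG183), 4.29 (BG38) and 1.64 CPM (BG90), all above the highest ABpIF/+ mouse and, for BG183 narrowly, the highest Ctrl mouse. The fitted log2 change from ABpIF/+ was 2.30 ± 0.42 (edgeR adjusted p = 0.000516). Its receptor *Cx3cr1* was called in the same comparison (log2 fold change 3.31, edgeR adjusted p = 0.000461), with 9.97 CPM in BG38 against 0.653 in BG183 and 2.25 in BG90. *Ccr2*, the receptor of *Ccl7*, had 2.12 (BG183), 21.3 (BG38) and 9.43 CPM (BG90) in ABpIF/F mice, and was between 0.242 and 1.38 CPM in every other mouse. Its log2 fold change from ABpIF/+ was 4.07 (edgeR adjusted p = 4.57e-05).

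*Ccl2* and *Ccl6* were measured at a mean of at least 1 CPM and were not called. *Ccl2*, the main monocyte attractant, had group means of 0.682 ± 0.571 CPM in Ctrl, 0.292 ± 0.379 in ABpIF/+ and 2.48 ± 2.08 in ABpIF/F (SD, n = 6, 6 and 3). Every ABpIF/F mouse was above every ABpIF/+ mouse, with an adjusted p of 0.0224 in edgeR's test. *Ccl6* means were 6.20 ± 1.14, 7.09 ± 2.70 and 13.7 ± 8.85 CPM in the same order. *Ccl3*, *Ccl4* and *Ccl12* were below 1 CPM in every group, with 78, 51 and 30 counts over all mice.

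Among the lymphocyte ligands, *Cxcl9* (chromosome 5, 92321347 to 92328079, Entrez 17329) and *Cxcl10* (chromosome 5, 92346638 to 92348889, Entrez 15945) were low in ABpIF/+ livers. *Cxcl9* lay between 9.76 and 19.8 CPM in Ctrl mice, with a median of 16.2, and between 0.387 and 4.74 CPM in ABpIF/+ mice, with a median of 2.00. ABpIF/F mice had 12.3 (BG183), 32.5 (BG38) and 13.1 CPM (BG90), so 2 of the 3 lay within the Ctrl range. Its log2 fold change was -2.75 ± 0.48 in ABpIF/+ against Ctrl (edgeR adjusted p = 0.000629), 0.33 ± 0.52 in ABpIF/F against Ctrl (edgeR adjusted p = 0.920) and 3.09 ± 0.53 in ABpIF/F against ABpIF/+ (edgeR adjusted p = 0.00115). The first and the last share the ABpIF/+ mice.

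*Cxcl10* lay between 2.43 and 6.10 CPM in Ctrl mice, with a median of 3.07, and between 0.363 and 2.03 CPM in ABpIF/+ mice, with a median of 1.05. The ABpIF/F levels were 4.70 (BG183), 8.81 (BG38) and 3.32 CPM (BG90), all above every ABpIF/+ mouse. Its log2 fold change was -1.76 ± 0.36 in ABpIF/+ against Ctrl (edgeR adjusted p = 0.000899) and 2.45 ± 0.41 in ABpIF/F against ABpIF/+ (edgeR adjusted p = 0.000283). The third *Cxcr3* ligand, *Cxcl11*, was not called in any comparison, at 2.76 ± 0.963, 1.73 ± 1.07 and 2.93 ± 0.529 CPM in Ctrl, ABpIF/+ and ABpIF/F. *Cxcr3* itself was not called either, at 0.647 ± 0.242, 0.396 ± 0.152 and 0.839 ± 0.860 CPM. Exons of *Cxcl10* overlap those of *Art3* on the opposite strand by 133 bases, and those of *Cxcl11* overlap *Gm2673* by 1582 bases. The strand setting of the counting is not given in the sources used here, so reads of such pairs may not be told apart.

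Genes known to be induced by interferons moved in the same comparisons. Of 9 interferon gamma induced genes, 7 fell in ABpIF/+ against Ctrl, beside 7.13% of all genes, and 8 rose in ABpIF/F against ABpIF/+, beside 7.32%. The 7 became 4 with the strain label. The 8 became 7 without BG38, beside 3.87% of all genes, and 2 with the clock score. In ABpIF/F against Ctrl, 0 of the 9 were called. Their summed level was between 535 and 635 CPM in Ctrl, 227 and 395 CPM in ABpIF/+, and 752 and 995 CPM in ABpIF/F mice. *Iigp1*, an immunity GTPase and the largest part of that sum, had a mean of 378 CPM in Ctrl, 206 in ABpIF/+ and 585 in ABpIF/F. It was not called in ABpIF/+ against Ctrl (log2 fold change -0.87). Of 10 type I interferon induced genes, 6 fell in ABpIF/+ against Ctrl and 10 rose in ABpIF/F against ABpIF/+. In ABpIF/F against Ctrl, 7 of these genes rose, beside 6.06% of all genes. The 6 became 2 with the strain label. Without BG38 the 7 became 4, beside 3.80% of all genes, and the 10 became 9, beside 3.87%. With the clock score both became 0, beside 1.36% of all genes for the 7. With the strain label the 7 became 1. Fewer of all genes were called in these fits too. Their shares with the strain label, and with the clock score between the ABpI groups, are given with the ligands below.

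*Ccl5*, *Ccl22* and *Cxcl16* were called higher in ABpIF/F than in ABpIF/+ livers. *Ccl5*, which attracts T cells, NK cells and monocytes, lay between 0.597 and 1.43 CPM in Ctrl (median 0.977) and between 0.282 and 1.23 CPM in ABpIF/+ mice (median 0.820). ABpIF/F mice had 2.55 (BG183), 5.46 (BG38) and 1.54 CPM (BG90), above all 12 others. The log2 fold change was 1.68 ± 0.44 from Ctrl (edgeR adjusted p = 0.00934) and 2.03 ± 0.45 from ABpIF/+ (edgeR adjusted p = 0.00236). The call against Ctrl was lost in 13 of 25 alternatives, among them without BG38 (log2 fold change 1.04, edgeR adjusted p = 0.226).

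*Cxcl16*, a transmembrane ligand of *Cxcr6* on T and NKT cells, lay between 6.04 and 8.49 CPM in Ctrl mice (median 6.91), between 4.10 and 6.49 CPM in ABpIF/+ mice (median 5.59) and at 8.71 (BG183), 20.9 (BG38) and 12.0 CPM (BG90) in ABpIF/F mice. The log2 fold change was 1.32 ± 0.21 (edgeR adjusted p = 0.000140), and no ABpIF/F mouse overlapped with a mouse of the other groups. From Ctrl it was 0.96 ± 0.21, just short of the fold threshold (edgeR adjusted p = 0.00241). *Cxcl16* exons overlap those of *Zmynd15* on the opposite strand by 552 bases. *Cxcr6* was not called in any comparison.

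*Ccl22*, a *Ccr4* ligand of regulatory and type 2 helper T cells, had between 0.0353 and 0.372 CPM in Ctrl mice, at most 0.0959 CPM in ABpIF/+ mice and 0.489 (BG183), 1.16 (BG38) and 0.214 CPM (BG90) in ABpIF/F mice. BG90 lay within the Ctrl range. The fitted log2 change from ABpIF/+ was 3.44 ± 0.78 (edgeR adjusted p = 0.00304). Of the other lymphocyte ligands, *Ccl25*, *Ccl27a* and *Cxcl13* reached a mean of 1 CPM and were not called. The B cell attractant *Cxcl13* had means of 1.81 ± 0.688, 0.369 ± 0.475 and 1.25 ± 1.14 CPM in Ctrl, ABpIF/+ and ABpIF/F. *Ccl25* had 2.26, 1.69 and 1.35 CPM and *Ccl27a* 6.84, 6.08 and 6.35 CPM, with exons that overlap *Elavl1* by 181 and *Il11ra1* by 8 bases on the opposite strand. *Ccl21a*, a ligand of *Ccr7* with near-identical copies between which reads can be split, had 46 counts in ABpIF/F mice, of which BG38 gave 1.19 CPM, and 0 in all others. The other 7 lymphocyte ligands had few reads over all mice, namely 85 counts of *Ccl28*, 28 of *Ccl17*, 9 of *Ccl20*, 7 of *Ccl1*, 4 of *Ccl19*, 3 of *Ccl27b* and 1 of *Ccl21b*.

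T and NK cell markers had a summed level of 3.67 to 5.53 CPM in Ctrl, 1.61 to 3.48 CPM in ABpIF/+ and 5.35, 14.4 and 4.93 CPM in BG183, BG38 and BG90. Of the 10 genes, 6 were called higher in ABpIF/F than in ABpIF/+, beside 7.32% of all genes. Without BG38 there were 0, beside 3.87%, and with the clock score 0 as well. Their part in the ligand results was not tested.

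Markers of the resident cells of the liver moved in the same comparisons as the lymphocyte ligands. Over all genes with a read, 6.26% were higher and 7.13% lower in ABpIF/+ against Ctrl. Without BG38 and with the clock score, 7.32% and 6.88% were lower there. In ABpIF/F against ABpIF/+, 7.32% of all genes were higher, or 3.87% without BG38. The shares with the strain label, and with the clock score between the ABpI groups, are given with the ligands below. Of 8 stellate cell and fibroblast markers, 6 fell in ABpIF/+ against Ctrl, and 6 also without BG38, with the clock score and with the strain label. All 8 rose in ABpIF/F against ABpIF/+ (6 without BG38 and 3 with the clock score). Their summed level was between 208 and 269 CPM in Ctrl, 58.1 and 124 CPM in ABpIF/+ and 235 and 389 CPM in ABpIF/F mice. The collagen gene *Col1a1* had means of 9.40, 0.466 and 19.8 CPM and *Col3a1* of 30.8, 1.53 and 39.1 CPM in the same order. Of 6 endothelial markers, 2 fell in ABpIF/+ against Ctrl (0 with the strain label) and 2 rose in ABpIF/F against ABpIF/+ (0 with the clock score), with summed levels of 144 to 220, 72.3 to 166 and 173 to 241 CPM. Of 6 dendritic cell markers, of which *Ccr7* and *Xcr1* are chemokine receptors as well, 3 fell in ABpIF/+ against Ctrl (1 with the strain label) and 4 rose in ABpIF/F against ABpIF/+ (1 without BG38 and 0 with the clock score), while the summed levels overlapped, at 6.99 to 8.94, 3.71 to 11.6 and 6.75 to 13.0 CPM. The 5 cholangiocyte markers summed to 6.25 to 8.19, 14.0 to 26.9 and 29.2 to 68.5 CPM, and 4 of them rose in ABpIF/F against ABpIF/+ (1 without BG38 and 0 with the clock score). In ABpIF/+ against Ctrl, only *Sox9* rose, from a mean of 2.96 to 18.2 CPM. *Krt19* fell in that comparison, from 1.42 to 0.612 CPM, and the others were not called. Of 6 B cell and plasma cell markers, 2 fell and 1 rose in ABpIF/+ against Ctrl (0 and 0 with the strain label). The part of these cells in the ligand results was not tested either.

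**Figure D4:**
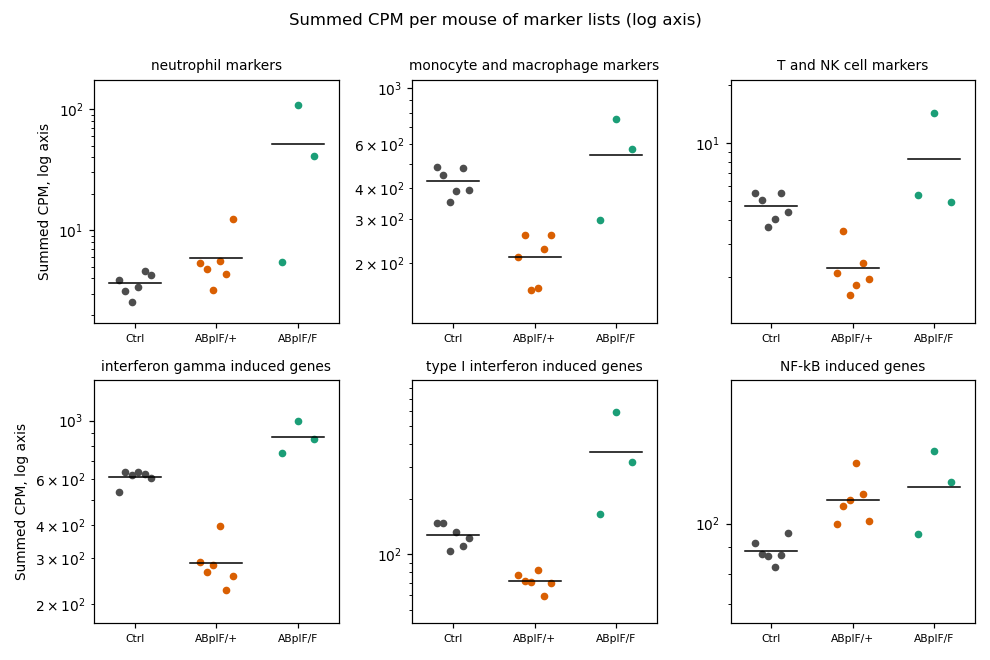
Summed CPM per mouse (points, log axis) of 6 gene lists in Ctrl, ABpIF/+ and ABpIF/F livers, with the group mean as a line. BG38 is the highest mouse in all 6 panels, and the interferon gamma induced genes lie lower in every ABpIF/+ mouse than in every other mouse.

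Of the other ligands, *Cxcl12* (chromosome 6, 117168535 to 117181367, Entrez 20315) was the most abundant ligand gene of Ctrl livers. It lay between 259 and 453 CPM in Ctrl mice, with a median of 367, and between 155 and 202 CPM in ABpIF/+ mice, with a median of 177. ABpIF/F mice had 261 (BG183), 153 (BG38) and 186 CPM (BG90), of which BG183 lay just inside the Ctrl range. The log2 fold change from Ctrl was -1.06 ± 0.15 in ABpIF/+ (edgeR adjusted p = 9.83e-06) and -0.89 ± 0.19 in ABpIF/F (edgeR adjusted p = 0.00158), which is short of the fold threshold. Without malpa454 or malpa458 the call in ABpIF/+ was lost, at a lowest size of -0.990. *Cxcr4*, its receptor, was not called in any comparison.

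*Cxcl17* (chromosome 7, 25400053 to 25412886, Entrez 232983), a mucosal chemokine whose receptor is not settled, went from nearly no reads to a low level. It had 2 counts over the 6 Ctrl mice, and every ABpI mouse had more CPM than every Ctrl mouse. ABpIF/+ mice lay between 0.264 and 1.40 CPM (median 0.578), and ABpIF/F mice had 0.228 (BG183), 1.11 (BG38) and 2.43 CPM (BG90). The ratio of summed counts per depth to Ctrl was 54.6 in ABpIF/+ (95% counting interval 14.7 to 456, edgeR adjusted p = 2.25e-05) and 103 in ABpIF/F (27.9 to 861, edgeR adjusted p = 1.06e-05).

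*Xcl1*, which attracts cross-presenting dendritic cells through *Xcr1*, had 27 counts over Ctrl, 3 over ABpIF/+ and 40 over ABpIF/F mice. Ctrl mice lay between 0.0321 and 0.249 CPM. ABpIF/F mice had 0.228 (BG183), 0.665 (BG38) and 0.322 CPM (BG90), above every ABpIF/+ mouse, of which the highest had 0.0403 CPM. The ratio of summed counts per depth was 8.74 in favour of Ctrl over ABpIF/+ (95% counting interval 2.69 to 45.0, edgeR adjusted p = 0.00772) and 23.2 in favour of ABpIF/F over ABpIF/+ (7.39 to 117, edgeR adjusted p = 0.000834). The Ctrl mouse malpa458, at 0.0321 CPM, overlapped with ABpIF/+ mice. *Xcr1* fell in ABpIF/+ against Ctrl (log2 fold change -2.35, edgeR adjusted p = 0.000983) and rose in ABpIF/F against ABpIF/+ (2.82, edgeR adjusted p = 0.000892). The call of the ligand *Xcl1* in ABpIF/+ against Ctrl was lost in 14 of 24 alternatives, 9 of them with 1 Ctrl or ABpIF/+ mouse left out. *Xcl1* exons overlap those of *Gm20743* on the opposite strand by 98 bases.

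*Cxcl14* and *Ccl24* reached a mean of 1 CPM and were not called. *Cxcl14* had means of 1.84 ± 0.253, 1.51 ± 2.06 and 7.91 ± 6.41 CPM in Ctrl, ABpIF/+ and ABpIF/F, where BG90 alone had 14.3 CPM. *Ccl24*, an eosinophil attractant, had 2.22 ± 0.307, 1.44 ± 0.701 and 2.31 ± 1.28 CPM. *Ccl11* and *Ccl26*, also eosinophil ligands, had 11 and 1 counts over all mice. *Pf4* and *Ppbp*, chemokines of platelets whose symbols the rule does not take in, had means of 0.460, 1.19 and 1.79 CPM and of 0.421, 1.01 and 2.98 CPM in Ctrl, ABpIF/+ and ABpIF/F. Both were called higher in ABpIF/F than in Ctrl, beside 6.06% of all genes. Without BG38 1 of them was called, beside 3.80%, and with the clock score or the strain label 0.

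Over the 18 chemokine receptors, 4 fell in ABpIF/+ against Ctrl, 4 rose in ABpIF/F against Ctrl and 7 rose in ABpIF/F against ABpIF/+, beside 7.13%, 6.06% and 7.32% of all genes. In ABpIF/+ against Ctrl the 4 became 1 with the strain label. In ABpIF/F against Ctrl the 4 became 1 without BG38, beside 3.80% of all genes. They became 0 with the clock score, beside 1.36%, or with the strain label. The shares of all genes with the strain label are given with the ligands below. Among the 7 were *Ccr1*, *Ccr2*, *Ccr7*, *Cxcr2*, *Cx3cr1* and *Xcr1*, and without BG38 2 of the 7 were called, *Ccr2* among them, beside 3.87% of all genes, and with the clock score 0, beside 0.294%. The 5 atypical receptors bind chemokines without classical signalling. Of these, *Ackr1*, *Ackr2* and *Ackr4* fell in ABpIF/+ against Ctrl, and *Ccrl2* rose in ABpIF/F against Ctrl, from a mean of 1.42 ± 0.307 to 3.62 ± 0.832 CPM. With the strain label *Ackr1* was the 1 that fell, and with either covariate *Ccrl2* was not called. Of 15 monocyte and macrophage markers, 7 fell and 2 rose in ABpIF/+ against Ctrl, beside 7.13% and 6.26% of all genes. In ABpIF/F against ABpIF/+, 9 rose (6 without BG38 and 0 with the clock score), beside 7.32%, 3.87% and 0.294%. With the strain label 2 fell and 0 rose in the first of these comparisons. Among them *Clec4f*, a marker of Kupffer cells, had means of 129, 54.7 and 137 CPM in Ctrl, ABpIF/+ and ABpIF/F. Of 9 NF-kB induced genes, *Nfkbiz* and *Tnfaip3* rose in ABpIF/+ against Ctrl, beside 6.26% of all genes. *Tnfaip3*, *Icam1* and *Relb* rose in ABpIF/F against Ctrl, beside 6.06%, and 0 were called between the ABpI groups. The 2 and 3 became 4 and 0 with the clock score, beside 6.31% and 1.36% of all genes, and 1 and 1 with the strain label.

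**Figure D5:**
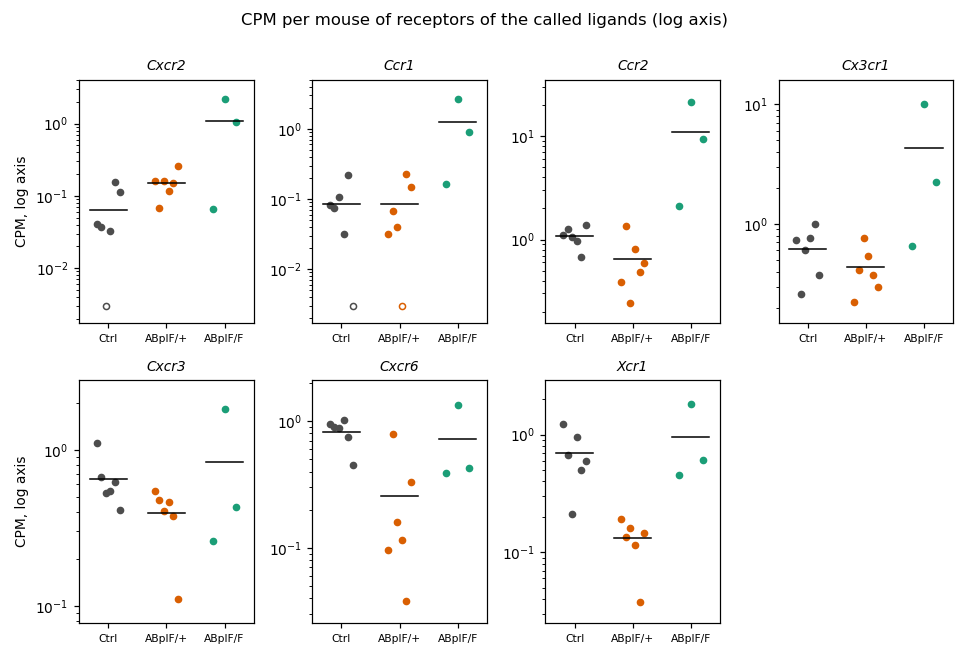
CPM per mouse (points, log axis) of 7 receptors of the called ligands in Ctrl, ABpIF/+ and ABpIF/F livers, with the group mean as a line and open points for mice with no read, drawn at 0.003 CPM. BG38 is the highest mouse of all 15 in each panel, and *Ccr2* is higher in every ABpIF/F mouse than in every other mouse.

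How far these calls rest on single mice differed between the comparisons. In ABpIF/F against ABpIF/+, leaving out BG38 left 1 of the 37 ligands called higher (2.70%), beside 3.87% of all genes. It was *Cxcl10* (log2 fold change 1.96, edgeR adjusted p = 0.00470), 1 of the 9 called with all mice. The 8 others kept their direction, with log2 fold changes of 0.90 for *Cxcl16* to 5.03 for *Ccl7*. With the clock score as a covariate 0 of the 9 were called, beside 0.294% of all genes, at log2 fold changes of 1.02 for *Cxcl16* to 6.15 for *Ccl7*. The clock scores of the ABpI groups do not overlap, so the score and the genotype cannot be told apart here. Against Ctrl, *Cxcl1* and *Cxcl17* stayed called in ABpIF/F without BG38, and *Ccl5* and *Cxcl5* did not. With the clock score as a covariate 0 of the 4 were called, beside 1.36% of all genes, at log2 fold changes of 4.44 for *Cxcl1*, 4.25 for *Cxcl17*, 3.73 for *Cxcl5* and 1.31 for *Ccl5*. The scores of Ctrl and ABpIF/F mice overlap through malpa387 alone. With the strain label 0 were called as well, beside 2.24% of all genes, at 4.83, 4.79, 6.00 and 1.28 in the same order.

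In ABpIF/+ against Ctrl, leaving out BG38 or adding the clock score left *Cxcl1*, *Ccl9* and *Cxcl17* higher and *Cxcl9*, *Cxcl10* and *Cxcl12* lower, while *Xcl1* lost its call with the clock score. With the strain label as a covariate, *Ccl9* (log2 fold change 1.68, edgeR adjusted p = 0.000128) and *Cxcl12* (-1.11, edgeR adjusted p = 0.00542) were the 2 ligands called, beside 2.68% of all genes higher and 3.98% lower. The 5 others kept their direction, with log2 fold changes of 3.07 for *Cxcl1*, 3.85 for *Cxcl17*, -2.10 for *Cxcl9*, -1.87 for *Cxcl10* and -2.89 for *Xcl1*. That fit sets the ABpIF/+ mice, and likewise the ABpIF/F mice, against BG3 alone. BG3 had 2.50 CPM of *Cxcl1*, 9.76 of *Cxcl9* and 3.77 of *Cxcl10*, each outside the range of the ABpIF/+ mice.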

How the data were processed

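Counts of total liver RNA were analysed. Per the labels and the study's methods, the authors trimmed paired-end reads of stranded mRNA libraries, aligned them to mm10 with HISAT2 (2.21 in the submitters' processing notes) and obtained gene counts by featureCounts 2.0.8. The annotation and strand setting are not given in the sources used here. The deposited values are raw counts of 27179 genes held in 15 mouse columns, although 23 samples are listed. The mouse is the replicate.

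Counts were fitted in edgeR 4.0.16 (R 4.3.3, limma 3.58.1) in the legacy quasi-likelihood form that the study's edgeR version used, with TMM, robust estimation, no filter and 3 groups. Called means an adjusted p under 0.01 with a log2 change of size 1 or more. Floors are 3 counts a group, and intervals of count ratios are exact at 95%. Alternatives were RLE factors, DESeq2 1.42.0, filterByExpr, the edgeR 4 method, no robust estimation, only the groups compared, clock score, strain label, each mouse left out and other thresholds. On simulated data the fit was tested before use.

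Every ligand with a read is accounted for: called ones by levels or counts in each group, others of at least 1 CPM by group means, the rest by counts or highest level. Of other lists, matching receptors and abundant genes are named, with a few more chosen after their values were seen, and some list genes are not reported here by name. Members and lists were chosen with earlier results of these data known. List counts under alternatives and the final motif letters were chosen after seeing the data. Positions are from GENCODE M21 (GRCm38), promoters from RefSeq (GRCm38.p6).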

Additional observations from a re-analysis of the deposited data

Results flagged for a closer look

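In all, 6 values among 27 group and ligand pairs lay far from the other 5 mice of their group, by a test of the gap to the nearest mouse against the range of the group. For normally distributed values, chance alone flags about 1 in 20 such groups. A group in which 1 mouse alone has a read is always flagged, so that rate does not hold for scarce ligands. The number flagged is therefore not compared with it. In Ctrl livers, *Cxcl1* was 4.36 CPM in malpa458, against 2.58 CPM in the next mouse, and *Cxcl10* was 6.10 CPM in malpa387, against 3.77. *Cxcl5* was 0.0372 CPM in malpa387 and 0 in the other Ctrl mice, which is 1 read. In ABpIF/+ livers, *Cxcl1* was 42.9 CPM in BG40, against 19.2 in the next mouse, *Cxcl5* was 0.239 CPM in BG30, against 0.0737, and *Ccl8* was 0.0341 CPM in BG30 and 0 in the others, also 1 read. Groups of 3 mice were not tested in this way.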

How the results depend on the processing

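No log2 fold change of a called ligand changed sign under any alternative run: of 495 results over 20 ligand and comparison pairs, 408 kept their call, 87 lost it and 0 reversed. In ABpIF/+ against Ctrl, the main counts of 3 higher and 4 lower became 1 and 1 with the strain label as a covariate, and 2 lower when a log2 change of size 2 was required. In ABpIF/F against Ctrl, the 4 higher became 9 with the edgeR 4 method, 2 without robust estimation, 0 with the clock score or the strain label, and 10 at an adjusted p under 0.05. In ABpIF/F against ABpIF/+, the 9 higher became 0 with the clock score. Leaving out each mouse gave 3 to 3 higher and 2 to 5 lower in the first comparison (2 without malpa454), 2 to 6 higher and 0 to 1 lower in the second (2 higher without malpa454, malpa462, BG88 or BG38, and *Cxcl12* lower without BG183), and 1 to 11 higher and 0 to 0 lower in the third (1 without BG38). The cause was not tested. *Ccl8*, *Xcl1* in ABpIF/+, *Cxcl5* and *Ccl5* against Ctrl lost their calls in 16, 14, 13 and 13 alternatives. The first 3 had 1 to 27 counts in a group compared, while *Ccl7*, with 0 and 39 counts, lost its call in 3 of 24. Whether depth limits these calls was not tested.

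A fit on the other deposited table was not run, since 5 of its columns could not be listed, and in the 10 columns shared by name 0 counts differed. No paired analysis was possible because the count columns carry mouse names and no number shared between groups.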
